A study of Mus musculus with 37 samples.

Results

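A set of 9 genes that restrain cell division was followed across 37 RNA sequencing libraries of mouse leukemic pre-B cells: the cyclin-dependent kinase (CDK) inhibitors Cdkn1a, Cdkn1b, Cdkn1c, Cdkn2a, Cdkn2b, Cdkn2c and Cdkn2d, and the antiproliferative genes Btg1 and Btg2. They were picked by gene name, with earlier results of these data known, as were the gene lists set beside them. They are 9 of 35290 genes in the files, and all 9 were among the 15699 genes with enough counts to be tested. Every library came from pre-B cells of C57BL/6 adult bone marrow that had the genotype Arf-/- and were transduced with BCR-ABL1, an oncogenic tyrosine kinase that drives acute lymphoblastic and chronic myeloid leukemia. The cells had then received either MIG, an empty retroviral vector that expresses GFP, or MIG-IK6, which adds IK6, a dominant-negative form of the lymphoid transcription factor IKAROS (written IK6 from here on). Both were kept without cytokines in RPMI with 10% FCS and given DMSO, or 1 µM of a compound in DMSO, either ATRA, Bexarotene, NOE (N-oleoylethanolamine) or Carbacyclin. ATRA is a ligand of the retinoic acid receptors and Bexarotene of the retinoid X receptors, Carbacyclin is an analog of prostacyclin, and NOE is an ethanolamide of oleic acid. There were 4 libraries in each of the 10 groups of vector and treatment, except 3 for MIG Bexarotene, IK6 Bexarotene and IK6 Carbacyclin. Every group, the controls included, had the Arf-/- genotype and BCR-ABL1. The sources used here state no treatment time, nor whether libraries of 1 group came from separate cultures. The p-values therefore measure the spread between these libraries, which may be technical.

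CDK inhibitors bind kinase complexes that drive the cell cycle. The Cip/Kip proteins p21 (Cdkn1a), p27 (Cdkn1b) and p57 (Cdkn1c) act on complexes of CDK2 with cyclin E or A, whereas the Ink4 proteins p16 (from Cdkn2a), p15 (Cdkn2b), p18 (Cdkn2c) and p19 (Cdkn2d) bind CDK4 and CDK6 and keep the retinoblastoma protein active. The Cdkn2a gene also encodes ARF, which restrains the p53 antagonist MDM2 and is read from its own first exon. BTG1 and BTG2 recruit the CCR4-NOT deadenylase to messenger RNAs and are associated with quiescence and differentiation in lymphocytes, and deletions of BTG1 recur in human B-lineage leukemia. In normal pre-B cells, leaving the cycle accompanies rearrangement of the immunoglobulin light chain genes.

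Total counts per library ran from 16.5 to 80.4 M (M, 1e+06 counts), with a median of 35.1 M. All 13 markers of pre-B cells were above 1 CPM (counts per 1e+06 counts of a library, after TMM scaling), with a summed group mean of 4177 to 6937 CPM. None of 7 markers of T and NK cells passed 1 CPM, and their sum was 0.373 to 1.70 CPM. Of 9 myeloid markers in the files, Itgam and Lyz2 passed 1 CPM, S100a8 and S100a9 had no counts, and the sum was 4.14 to 18.7 CPM. Of 7 erythroid and megakaryocyte markers, Hbb-b1 and Itga2b passed, with a sum over all 7 of 3.84 to 20.3 CPM. Of 6 stromal and endothelial markers, only Pecam1 passed, with group means of 49.2 to 112 CPM. It made up nearly all of the sum of the 6, which was 49.5 to 112 CPM. Ikzf1, whose coding sequence IK6 shares, was at 264 ± 6.07 CPM in MIG DMSO and 424 ± 10.7 CPM in IK6 DMSO (SD, n = 4). The Arf-/- genotype could not be checked, because 1 count per gene pools the exons of p16 and ARF and no library carries an intact gene for comparison. In 3 MIG libraries the genes of ribosomal proteins took more than 12% of counts: DMSO replicate 3 (15.4%), Bexarotene replicate 3 (12.5%) and Carbacyclin replicate 4 (15.5%). The other libraries were at 7.33 to 11.5%, and calls of the 9 genes that leaving out these 3 libraries changes are given with and without them.

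Promoters of the genes that changed most often carry the motifs set beside the values further on. Each window holds 250 bases before and 50 bases after a transcription start of RefSeq on build GRCm38.p6, written 5′ to 3′ along the gene's strand. RefSeq windows were at hand for 8 of the 9 genes, 11 windows in all. Capitals mark matches on either strand to 10 short motifs, and neighbouring or overlapping matches form 1 run of capitals. The motifs were the E-box CACGTG, the nuclear receptor half-site AGGTCA, the cAMP response half-site TGACG and its palindrome TGACGTCA, the GC box GGGCGG, the CCAAT box, the E2F core GGCGGGA, the FOXO site TGTTTAC, the TATA box TATAAA and the half-site of p53. The palindrome contains the half-site on both strands, and the GC box and E2F core can overlap. A match describes letters and does not show binding.
Cdkn1a, upstream start, chr17:29090729-29091028, plus strand: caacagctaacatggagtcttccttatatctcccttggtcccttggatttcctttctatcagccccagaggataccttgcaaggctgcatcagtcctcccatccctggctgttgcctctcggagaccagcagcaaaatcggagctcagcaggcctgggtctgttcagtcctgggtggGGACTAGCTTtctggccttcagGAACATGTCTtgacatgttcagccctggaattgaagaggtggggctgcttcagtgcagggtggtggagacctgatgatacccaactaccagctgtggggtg
Cdkn1a, downstream start, chr17:29093519-29093818, plus strand: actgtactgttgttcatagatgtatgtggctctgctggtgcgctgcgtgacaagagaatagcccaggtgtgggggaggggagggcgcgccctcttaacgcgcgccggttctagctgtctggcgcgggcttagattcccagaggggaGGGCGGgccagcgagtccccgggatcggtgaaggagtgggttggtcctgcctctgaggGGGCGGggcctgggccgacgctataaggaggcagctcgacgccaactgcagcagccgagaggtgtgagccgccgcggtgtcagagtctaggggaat
Btg2, chr1:134079106-134079405, minus strand: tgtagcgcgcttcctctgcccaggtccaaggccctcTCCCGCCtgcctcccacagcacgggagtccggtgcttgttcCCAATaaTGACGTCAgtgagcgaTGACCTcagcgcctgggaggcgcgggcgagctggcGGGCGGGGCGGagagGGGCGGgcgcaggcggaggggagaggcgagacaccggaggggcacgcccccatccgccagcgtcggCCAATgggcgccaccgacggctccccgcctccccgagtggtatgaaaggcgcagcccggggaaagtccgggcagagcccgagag
Btg1, chr10:96616751-96617050, plus strand: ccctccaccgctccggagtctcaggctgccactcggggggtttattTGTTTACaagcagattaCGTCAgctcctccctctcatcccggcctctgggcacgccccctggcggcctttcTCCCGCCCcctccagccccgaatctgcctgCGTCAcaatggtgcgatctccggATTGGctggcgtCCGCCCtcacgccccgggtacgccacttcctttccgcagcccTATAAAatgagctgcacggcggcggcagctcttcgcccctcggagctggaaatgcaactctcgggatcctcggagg
Cdkn2b, chr4:89310983-89311282, minus strand: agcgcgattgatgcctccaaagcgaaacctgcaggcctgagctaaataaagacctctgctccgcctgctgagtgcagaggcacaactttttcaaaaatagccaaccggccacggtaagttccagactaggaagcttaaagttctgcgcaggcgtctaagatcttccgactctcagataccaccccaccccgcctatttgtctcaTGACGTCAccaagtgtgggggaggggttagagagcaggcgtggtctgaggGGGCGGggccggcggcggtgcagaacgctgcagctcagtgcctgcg
Cdkn2c, upstream start, chr4:109666707-109667006, minus strand: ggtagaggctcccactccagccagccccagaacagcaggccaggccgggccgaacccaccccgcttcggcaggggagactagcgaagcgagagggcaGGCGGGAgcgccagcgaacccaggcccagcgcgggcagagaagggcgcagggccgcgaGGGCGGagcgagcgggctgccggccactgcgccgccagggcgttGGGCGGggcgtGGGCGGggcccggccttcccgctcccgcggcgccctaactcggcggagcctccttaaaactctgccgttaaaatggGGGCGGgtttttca

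The upstream window of Cdkn1a was shown for its 2 p53 half-sites, a motif held by 8.36% of 32851 mouse promoter windows of the same length, and its downstream window holds 2 GC boxes. Btg2 and Cdkn2b were shown because both windows hold the palindrome TGACGTCA, which 1.79% of windows hold, and Btg2 also holds 1 nuclear receptor half-site (in 16.3% of windows). Btg1 was shown for its FOXO site, present in 3.65% of windows, beside 2 separate cAMP response half-sites (in 20.8% of windows) and a TATA box (in 13.6%). Cdkn2c, the gene that fell, has 4 GC boxes and 1 E2F core upstream, motifs in 35.7% and 11.3% of windows. Its other window, not shown, holds 1 nuclear receptor half-site, 1 E-box and 1 CCAAT box, and a window of Cdkn2a also holds 1 nuclear receptor half-site. CCAAT was in 37.4% of windows and the E-box in 7.15%. The E2F core, the GC box and the p53 half-site also occur in windows of other members. Btg1, Btg2 and Cdkn2d hold 1 E2F core each, and 2, 3 and 5 GC boxes. The window of Cdkn2d, not shown, holds 1 p53 half-site as well.

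Expression levels of the 9 genes differed widely. Per kb of exon, averaged over the 10 groups, Cdkn2a was at 72.4 CPM per kb, Btg1 at 44.8, Cdkn1b at 39.5, Btg2 at 37.6 and Cdkn1a at 35.9 CPM per kb. Cdkn2d (12.4 CPM per kb), Cdkn2c (11.3) and Cdkn2b (5.45) were lower. Cdkn1c was at 0.124 CPM per kb, with 0 to 25 counts in a library. The exon lengths are those of GENCODE, which may differ from the exons counted, and that of Cdkn2a, 1.17 kb, was the shortest. Before division by length Cdkn2a (84.8 CPM) came after Btg1 (236), Cdkn1b (180), Cdkn1a (127) and Btg2 (103). These are levels of messenger RNA, and in bulk samples a change in the share of cells that express a gene cannot be told apart from a change per cell. The ratio of the highest to the lowest group mean was 5.90 for the sparse Cdkn1c, 4.58 for Cdkn1a, 3.11 for Btg2, 3.00 for Cdkn2b and 2.77 for Btg1. It was 1.73 for Cdkn1b, the least variable across groups.

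Each compound was compared with DMSO in the same vector with edgeR's quasi-likelihood test, and a gene was called where its Benjamini-Hochberg adjusted p over all 15699 tested genes was under 0.05. Cdkn1a and Btg2 rose and Cdkn2c fell in all 8 of these comparisons, with no overlap between libraries with compound and with DMSO. How many of all tested genes did the same in all 8 was not counted. The 4 comparisons within a vector share the same DMSO libraries, so they are not independent of each other. With ATRA in MIG, 4 members rose (Cdkn1a, Cdkn2b, Btg1 and Btg2), where 20.6% of all tested genes rose, and 1 fell (Cdkn2c), where 21.2% of all genes fell. With ATRA in IK6, 3 rose (Cdkn1a, Btg1 and Btg2) against 22.7% of all genes and 3 fell (Cdkn1b, Cdkn1c and Cdkn2c) against 20.9%. Bexarotene gave 4 rises (Cdkn1a, Cdkn2b, Btg1 and Btg2) and 1 fall (Cdkn2c) in each vector, where 19.9% of all genes rose and 18.2% fell in MIG, and 22.3% rose and 19.4% fell in IK6. With Carbacyclin in MIG, 3 rose (Cdkn1a, Btg1 and Btg2; 24.7% of all genes) and 2 fell (Cdkn1b and Cdkn2c; 23.3%). In IK6, Carbacyclin raised the same 3 genes (20.8% of all genes) and lowered Cdkn1c, Cdkn2b and Cdkn2c (18.8%). NOE in MIG raised 4 (Cdkn1a, Cdkn1b, Cdkn2b and Btg2; 22.6% of all genes) and lowered 3 (Cdkn1c, Cdkn2c and Btg1; 22.3%). In IK6, NOE raised 5, the same 4 and Cdkn2a (22.8% of all genes), and lowered Cdkn1c and Cdkn2c (18.2%). Between 5 and 7 of the 9 genes were thus called in each comparison, and Cdkn2d in none of the 8.

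**Figure D1:**
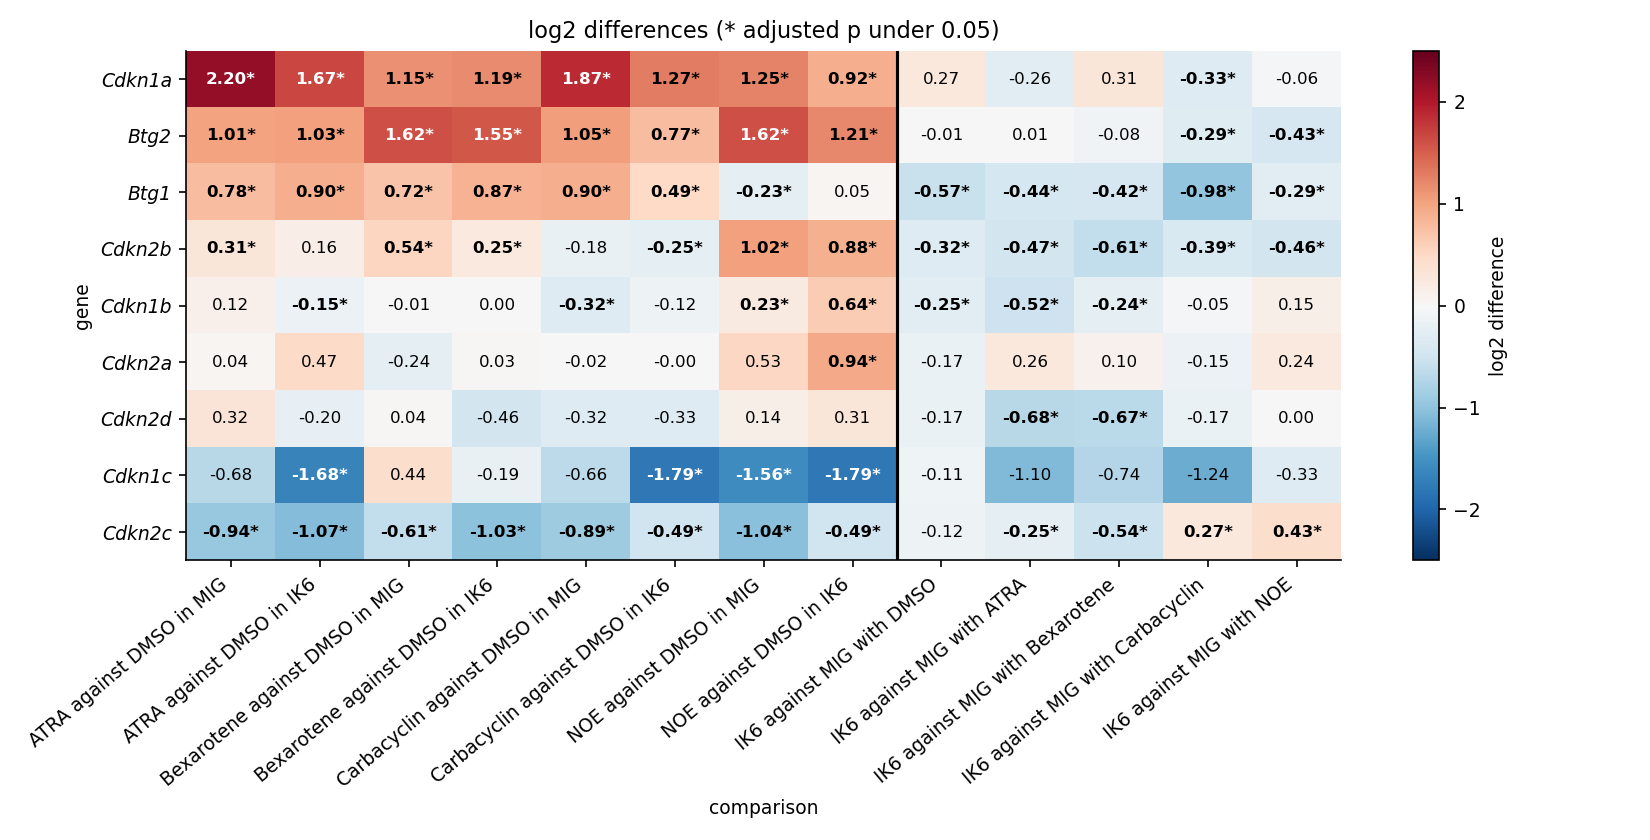
Log2 differences (colour and number) of the 9 genes (rows) in the 8 comparisons of a compound with DMSO, left of the line, and in the 5 comparisons of IK6 with MIG, right of it; bold numbers with an asterisk have an adjusted p under 0.05. Cdkn1a and Btg2 are positive and Cdkn2c negative in all 8 comparisons on the left, and Btg1 and Cdkn2b are negative in all 5 on the right.

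Cdkn1a encodes p21, the inhibitor best known as a target of p53. Its upstream window holds the 2 p53 half-sites in capitals. A gene on the opposite strand overlaps Cdkn1a in the GENCODE annotation, and reads of the pair could not be told apart without the strand setting. Its level was 42.6, 43.6, 57.3 and 46.9 CPM in the 4 MIG DMSO libraries and 54.3, 59.0, 59.3 and 56.7 CPM in the 4 of IK6 DMSO. With ATRA it was 216, 197, 226 and 231 CPM in MIG and 178, 189, 191 and 172 CPM in IK6. Every ATRA library thus lay above every DMSO library, and the log2 difference was 2.20 ± 0.11 (SE) in MIG (adjusted p = 2.55e-17), a 4.58-fold rise, and 1.67 ± 0.11 in IK6 (adjusted p = 1.68e-14). Carbacyclin libraries held 147, 174, 168 and 206 CPM in MIG and 151, 140.0 and 124 CPM in IK6. The rise over DMSO was 1.87 ± 0.11 and 1.27 ± 0.11 on the log2 scale (adjusted p = 1.07e-15 and 5.33e-11). Bexarotene libraries held 97.7, 95.9 and 123 CPM in MIG and 134, 137 and 122 CPM in IK6, and NOE libraries 122, 122, 107 and 99.8 CPM in MIG and 122, 105, 86.1 and 120.2 CPM in IK6. These were rises of 1.15 ± 0.11 and 1.19 ± 0.11 with Bexarotene and of 1.25 ± 0.11 and 0.92 ± 0.11 with NOE (highest adjusted p 1.12e-08). Ordered by level, both DMSO groups came lowest and MIG ATRA highest, with no library overlap between IK6 DMSO and the next group or between IK6 ATRA and MIG ATRA. The 7 other neighbouring pairs of groups in that order overlapped in their libraries. In the 3 MIG libraries with a high ribosomal protein share, Cdkn1a was the highest of its group each time (57.3, 123 and 206 CPM), and whether that share bears on the value was not tested.

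**Figure D2:**
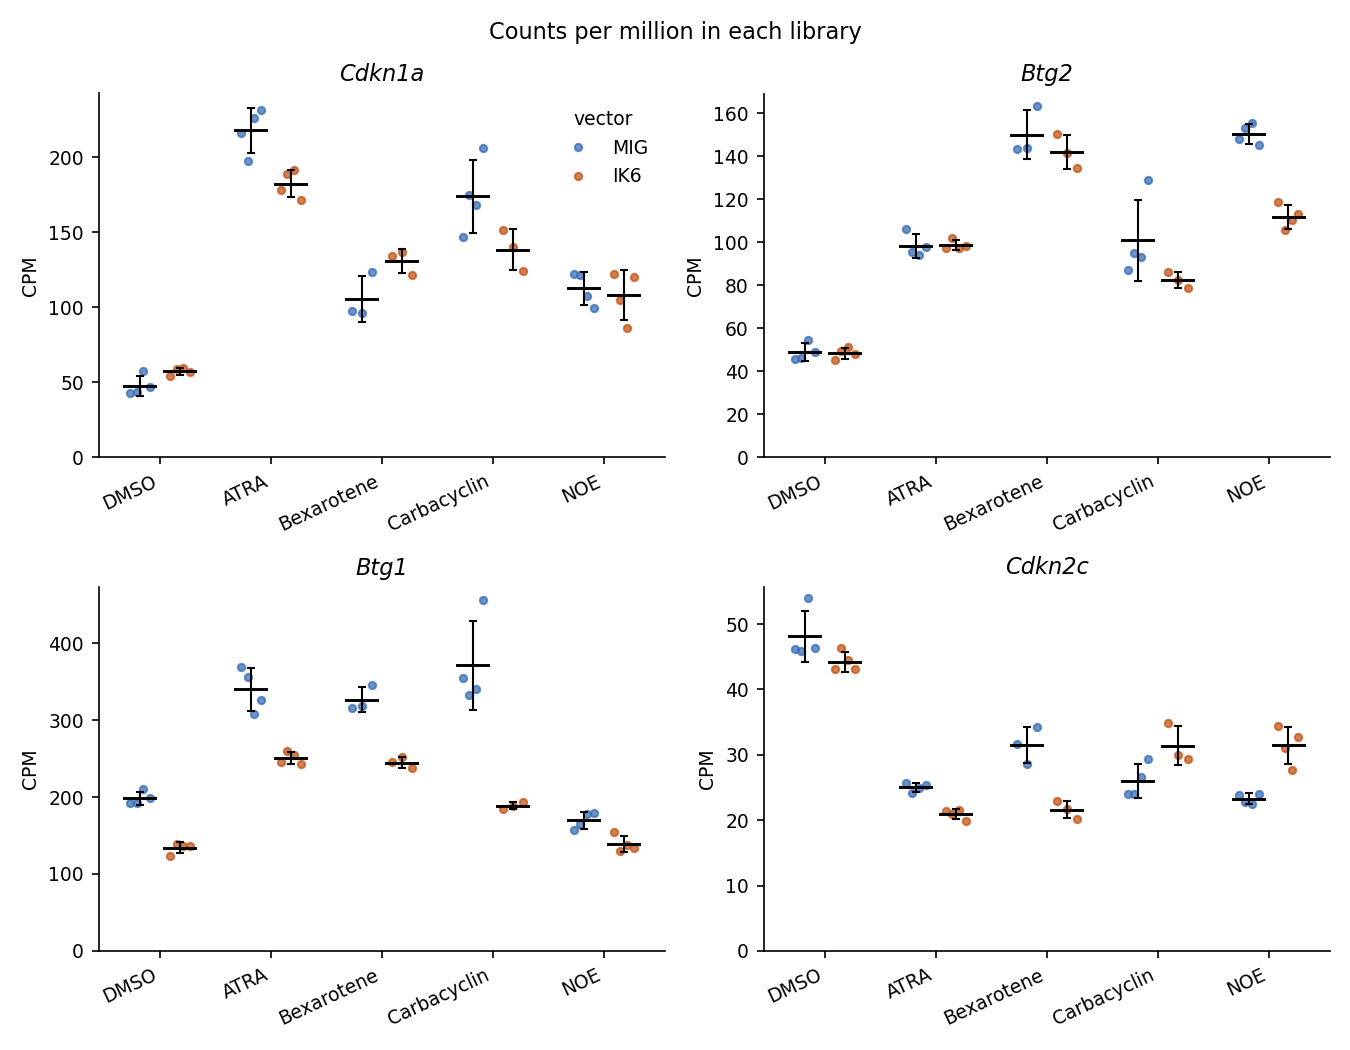
CPM of Cdkn1a, Btg2, Btg1 and Cdkn2c (linear vertical axes from 0) by treatment, for MIG (blue) and IK6 (orange); each point is a library and the bars are the mean ± SD of the group (n = 3 or 4). Cdkn1a and Btg2 lie lowest and Cdkn2c highest with DMSO, and Btg1 is lower in IK6 than in MIG with each treatment.

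Btg2, a partner of the CCR4-NOT deadenylase, started from overlapping levels in both vectors, 45.8, 46.2, 54.6 and 49.0 CPM in MIG DMSO and 45.1, 49.3, 51.1 and 48.1 CPM in IK6 DMSO. Its highest levels came with Bexarotene and, in MIG, with NOE. Bexarotene libraries held 143, 144 and 163 CPM in MIG and 150.1, 142 and 134 CPM in IK6. NOE libraries held 148, 153, 155 and 145 CPM in MIG and 119, 105, 110.1 and 113 CPM in IK6. In log2 terms Bexarotene raised Btg2 by 1.62 ± 0.09 in MIG and 1.55 ± 0.09 in IK6 (adjusted p = 2.87e-16 and 7.82e-16), and NOE by 1.62 ± 0.08 and 1.21 ± 0.08 (adjusted p = 1.50e-17 and 3.60e-14). ATRA libraries held 106, 95.4, 93.9 and 97.7 CPM in MIG and 97.1, 102, 97.1 and 98.2 CPM in IK6. Carbacyclin libraries held 87.0, 94.9, 93.2 and 129 CPM in MIG, where replicate 4 stood above the other 3, and 86.0, 82.3 and 78.9 CPM in IK6. The ATRA rise was 1.01 ± 0.08 in MIG and 1.03 ± 0.08 in IK6, and the Carbacyclin rise 1.05 ± 0.08 and 0.77 ± 0.09 (highest adjusted p 6.27e-09). The 2 DMSO groups overlapped and lay apart from IK6 Carbacyclin, the next in the order of levels. At the top, MIG NOE, MIG Bexarotene and IK6 Bexarotene overlapped each other and lay above IK6 NOE. Btg2 and Cdkn1a therefore both rose with each compound but were ordered differently by it: the mean of Cdkn1a was highest with ATRA in each vector, while every Bexarotene library held more Btg2 than every ATRA library of its vector.

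Btg1, the relative of Btg2, rose with 3 of the 4 compounds. It was at 192, 192, 210.2 and 199 CPM in MIG DMSO and 123, 139, 137 and 137 CPM in IK6 DMSO, with no overlap. ATRA gave 369, 357, 307 and 326 CPM in MIG and 246, 259, 254 and 242 CPM in IK6. Rises with ATRA were 0.78 ± 0.08 and 0.90 ± 0.08 on the log2 scale (adjusted p = 2.38e-10 and 8.05e-12). Bexarotene gave 316, 318 and 346 CPM in MIG and 245, 252 and 237 CPM in IK6, differences of 0.72 ± 0.08 and 0.87 ± 0.08. Carbacyclin gave 355, 332, 340.4 and 456 CPM in MIG, highest in the high-ribosomal replicate 4, and 184, 189 and 193 CPM in IK6, differences of 0.90 ± 0.08 and 0.49 ± 0.08 (adjusted p = 6.62e-12 and 7.48e-06). With NOE, by contrast, the libraries held 157, 165, 177 and 179 CPM in MIG, below every DMSO library of that vector, and 154, 130.4, 138 and 134 CPM in IK6, across the DMSO range. Btg1 fell by 0.23 on the log2 scale in MIG (SE 0.07, adjusted p = 0.0136), a call that was lost without MIG NOE replicate 1 (adjusted p = 0.0854) or replicate 2 (0.0576). In IK6 the difference was 0.05, with a 95% interval of -0.10 to 0.21. Btg1 and Btg2 thus went separate ways with NOE, where Btg2 rose in both vectors.

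Cdkn2c encodes p18, an Ink4 inhibitor of CDK4 and CDK6, and was the only member that fell with each compound in each vector. It was at 46.2, 45.8, 54.0 and 46.4 CPM in MIG DMSO and 43.1, 46.3, 44.5 and 43.1 CPM in IK6 DMSO, which overlapped. ATRA gave 25.7, 24.2, 24.9 and 25.3 CPM in MIG and 21.4, 21.0, 21.6 and 19.9 CPM in IK6. Falls with ATRA had log2 differences of -0.94 ± 0.07 and -1.07 ± 0.07 (adjusted p = 1.11e-12 and 4.22e-14). NOE gave 23.9, 22.8, 22.5 and 24.1 CPM in MIG and 34.4, 31.0, 27.7 and 32.8 CPM in IK6. Log2 differences with NOE were -1.04 ± 0.07 in MIG and -0.49 ± 0.07 in IK6 (adjusted p = 5.38e-14 and 7.26e-07). Carbacyclin libraries held 24.0, 24.0, 26.7 and 29.4 CPM in MIG and 34.8, 29.9 and 29.4 CPM in IK6, and Bexarotene libraries 31.6, 28.6 and 34.2 CPM in MIG and 22.9, 21.7 and 20.2 CPM in IK6. Carbacyclin differences were -0.89 ± 0.07 and -0.49 ± 0.08, and those of Bexarotene -0.61 ± 0.08 and -1.03 ± 0.08 (highest adjusted p 3.91e-06). In the order of levels the 2 DMSO groups stood together above all 8 groups with a compound. Calls of Cdkn1a, Btg2 and Cdkn2c against DMSO were kept, with the same sign, in each of 125 refits per gene with other settings or without 1 library.

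Cdkn1b encodes p27, whose gene is a target of FOXO factors and whose protein is marked for degradation through SKP2. Its libraries held 190.0, 191, 177 and 195 CPM in MIG DMSO and 151, 158, 159 and 163 CPM in IK6 DMSO, with no overlap. NOE gave 203, 208, 221 and 253 CPM in MIG and 260.0, 239.6, 245 and 238 CPM in IK6, all above the DMSO libraries of their vector. NOE was the only compound with which it rose, by 0.23 ± 0.06 in MIG (adjusted p = 0.00183) and 0.64 ± 0.06 in IK6 (adjusted p = 1.45e-10) on the log2 scale. Carbacyclin gave 159, 152, 149 and 143 CPM in MIG, below the DMSO libraries, a difference of -0.32 ± 0.06 (adjusted p = 4.28e-05). In IK6 its Carbacyclin libraries ran from 128 to 155 CPM and overlapped those with DMSO (-0.12 ± 0.07, adjusted p = 0.157). ATRA libraries ran from 193 to 209 CPM in MIG and 139.7 to 144 CPM in IK6. The IK6 difference of -0.15 ± 0.06 passed narrowly (adjusted p = 0.0456) and was kept only without IK6 DMSO replicate 1 among 8 refits without 1 library (adjusted p otherwise up to 0.119). With Bexarotene the differences were -0.01 (95% interval -0.15 to 0.12) in MIG and 0.00 (-0.13 to 0.13) in IK6.

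Cdkn2b encodes p15, the Ink4 inhibitor known for its induction by TGF-beta in epithelial cells. It was the least abundant Ink4 gene here, at 6.26, 6.36, 6.94 and 7.15 CPM in MIG DMSO and 5.49, 5.11, 5.14 and 5.58 CPM in IK6 DMSO. NOE libraries held 14.9, 13.5, 12.2 and 13.3 CPM in MIG and 9.90, 9.52, 9.11 and 10.8 CPM in IK6. This was the largest change of Cdkn2b, a 2.03-fold rise in MIG (1.02 ± 0.09 on the log2 scale, adjusted p = 1.13e-11) and a 1.84-fold rise in IK6 (0.88 ± 0.09, adjusted p = 4.65e-10). Bexarotene libraries ran from 8.03 to 10.9 CPM in MIG and 5.52 to 6.70 CPM in IK6, and ATRA libraries from 7.92 to 8.76 CPM in MIG and 5.29 to 6.34 CPM in IK6. In MIG the rise was 0.54 ± 0.09 with Bexarotene (adjusted p = 2.53e-05) and 0.31 ± 0.09 with ATRA (adjusted p = 0.00634). In IK6 it was 0.25 ± 0.10 with Bexarotene (adjusted p = 0.0394), with overlapping libraries, and 0.16 ± 0.09 with ATRA, which did not pass (adjusted p = 0.16). Carbacyclin went the other way, with 4.18, 4.65 and 4.64 CPM in IK6 (-0.25 ± 0.10, adjusted p = 0.047) and 5.44 to 6.69 CPM in MIG (-0.18 ± 0.09, adjusted p = 0.0921). Without the 3 high-ribosomal libraries the MIG difference passed (-0.24, adjusted p = 0.0305). Neither the Bexarotene nor the Carbacyclin call in IK6 was kept in every alternative. The first was lost in 4 of 7 refits without 1 library (IK6 Bexarotene replicates 1 and 3, IK6 DMSO replicates 2 and 3), with adjusted p up to 0.167, and the second in 6 of 7 (all but IK6 DMSO replicate 2), with adjusted p up to 0.206. With all libraries kept, the Bexarotene call was lost with DESeq2 (adjusted p = 0.0685), RLE factors (0.0665), a filter of 1 CPM in a group (0.0536) and no filter (0.121). The Carbacyclin call was lost with DESeq2 (0.0503), no filter (0.0677) and the replicate number as a block (0.0751). Btg2 and Cdkn2b, the genes whose windows hold the palindrome TGACGTCA, both rose with Bexarotene and NOE in each vector, while with Carbacyclin Btg2 rose and Cdkn2b had negative differences. Whether the palindrome bears on these values was not tested.

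**Figure D3:**
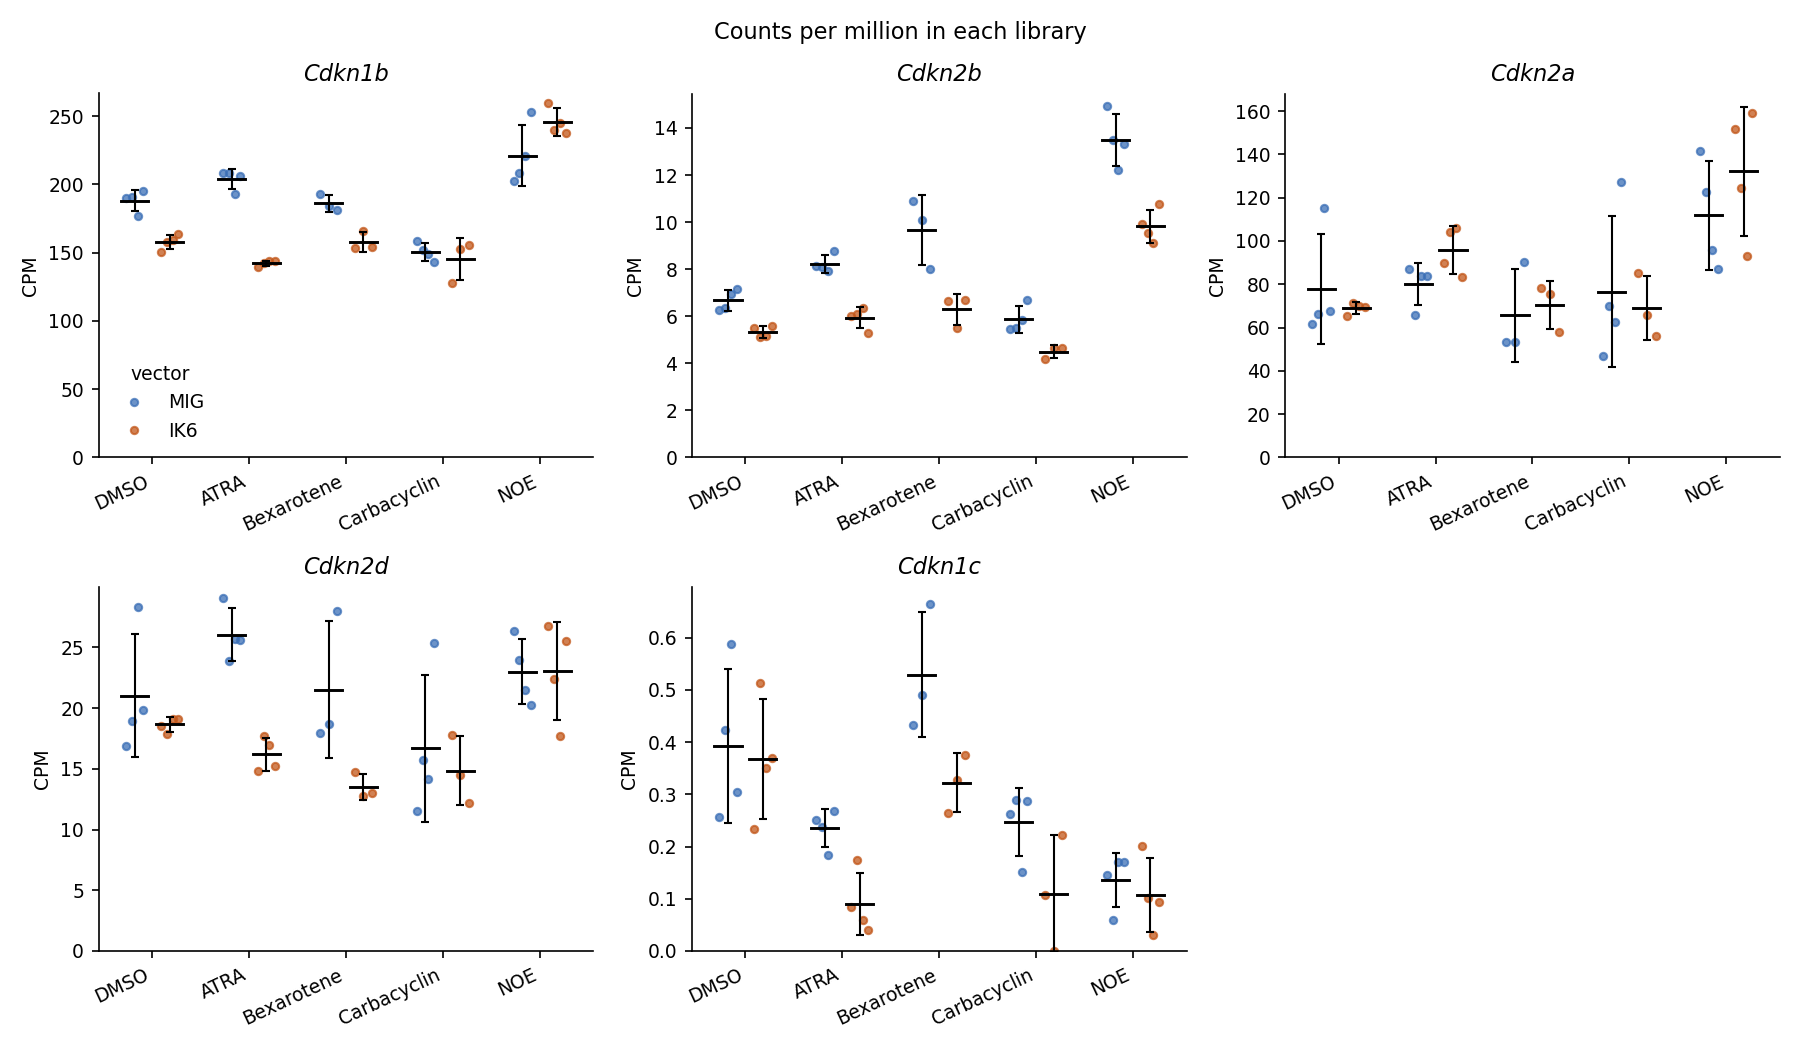
CPM of Cdkn1b, Cdkn2b, Cdkn2a, Cdkn2d and Cdkn1c (linear vertical axes from 0, scaled to each gene) by treatment, for MIG (blue) and IK6 (orange); each point is a library and the bars are the mean ± SD of the group (n = 3 or 4). Cdkn1b and Cdkn2b are highest with NOE, and for Cdkn2a and Cdkn2d single MIG libraries with DMSO, Bexarotene and Carbacyclin stand above the others of their group.

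Cdkn2a and Cdkn2d, the Ink4 genes for p16 and p19, had the widest spread within groups among the well-counted members, with a median coefficient of variation of 21.9% and 14.6%. Cdkn2a was at 61.6, 66.2, 115 and 67.7 CPM in MIG DMSO and 65.3, 71.3, 70.1 and 69.4 CPM in IK6 DMSO. NOE gave 142, 123, 95.8 and 87.0 CPM in MIG and 152, 125, 93.2 and 159 CPM in IK6. In IK6 every NOE library lay above every DMSO library (0.94 ± 0.23 on the log2 scale, adjusted p = 0.00126). In MIG the groups overlapped through DMSO replicate 3, and the difference of 0.53 ± 0.23 did not pass (adjusted p = 0.0616). Without the 3 libraries of high ribosomal protein share it was 0.80 (adjusted p = 5.35e-04), and with all libraries it passed with DESeq2 (0.0438), upper-quartile factors (0.029) and a filter of 1 CPM in a group (0.0351). IK6 ATRA libraries held 90.0, 104, 106 and 83.4 CPM and did not overlap those with DMSO, yet the difference of 0.47 ± 0.23 did not pass (adjusted p = 0.096), and it passed at 0.47 without the 3 libraries (adjusted p = 0.0189). The 5 remaining comparisons with DMSO lay between -0.24 and 0.04. No neighbouring groups in the order of Cdkn2a levels were apart in their libraries. The value is 1 count over the exons of p16 and ARF together, in cells that all carry the Arf-/- genotype.

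For Cdkn2d, MIG libraries held 16.9, 18.9, 28.4 and 19.9 CPM with DMSO, 29.1, 23.9, 25.7 and 25.6 with ATRA, 17.9, 18.7 and 28.0 with Bexarotene, 11.5, 15.7, 14.2 and 25.4 with Carbacyclin and 26.3, 24.0, 21.5 and 20.2 with NOE. IK6 libraries held 18.5, 17.9, 19.1 and 19.1 CPM with DMSO, 14.8, 17.7, 17.0 and 15.2 with ATRA, 14.7, 12.8 and 13.0 with Bexarotene, 17.8, 14.5 and 12.2 with Carbacyclin and 26.7, 22.4, 17.7 and 25.5 with NOE. None of its 8 comparisons with DMSO passed, and log2 differences ran from -0.46 (Bexarotene in IK6, adjusted p = 0.0542) to 0.32 (ATRA in MIG, adjusted p = 0.154). Without the 3 libraries, Cdkn2d passed in 6 of them, among these ATRA in MIG at 0.49 (adjusted p = 0.00136), Carbacyclin in MIG at -0.41 (0.0105) and Bexarotene in IK6 at -0.48 (0.00213). The others were Carbacyclin in IK6 at -0.33 (0.027) and NOE at 0.33 in MIG (0.0239) and 0.29 in IK6 (0.0314). Bexarotene in IK6 also passed with DESeq2 (0.0276) and in 4 further alternatives with all libraries kept. The 3 libraries held the most Cdkn2a of their groups: 115 CPM against 61.6 to 67.7 in the other MIG DMSO libraries, 90.3 against 53.1 and 53.5 with Bexarotene, and 127 against 46.9 to 70.0 with Carbacyclin. They also held the most Cdkn2d of their groups (28.4, 28.0 and 25.4 CPM). This was not particular to these genes: the same 3 libraries held the most Cdkn1a, Btg1, Btg2 and Cdkn2c and the least Cdkn1b of their groups. Their TMM factors, 0.868, 0.971 and 0.828, were the lowest of their groups. Among IK6 NOE libraries, the lowest ribosomal protein share, 8.05% in replicate 3, came with the lowest Cdkn2a (93.2 CPM) and Cdkn2d (17.7 CPM). The part of that share in these values was not tested.

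**Figure D4:**
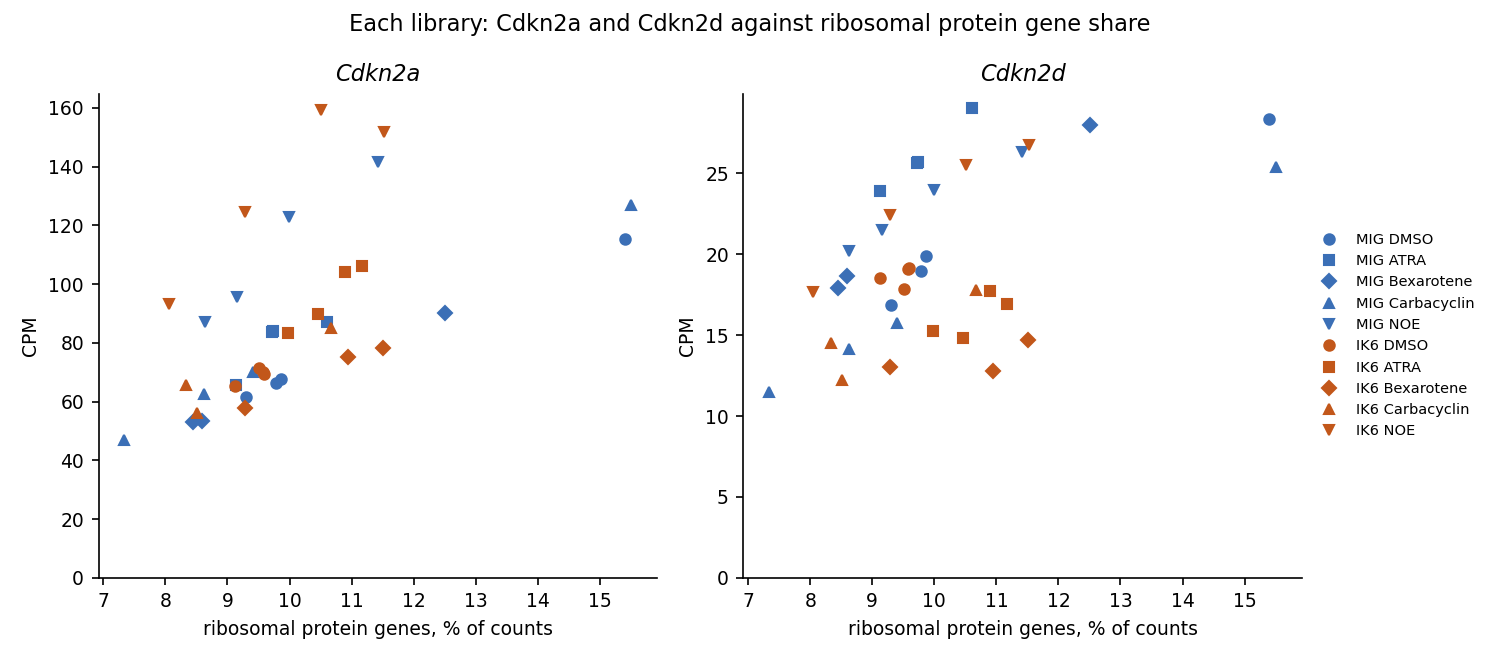
CPM of Cdkn2a (left) and Cdkn2d (right) in each of the 37 libraries (vertical axes from 0) against the percent of counts in ribosomal protein genes (horizontal axes); colour gives the vector and symbol the treatment. The 3 MIG libraries at 12.5% and above hold the most Cdkn2a and Cdkn2d of their groups.

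Cdkn1c, the imprinted gene of p57, was close to the limit of detection. Summed over a group it had 52 counts in MIG DMSO, 28 with ATRA, 60 with Bexarotene, 41 with Carbacyclin and 21 with NOE. In IK6 the sums were 56, 20, 33, 10 and 18 counts in the same order. It fell with NOE in both vectors (-1.56 ± 0.41 in MIG, adjusted p = 0.00227, and -1.79 ± 0.42 in IK6, adjusted p = 7.87e-04). In IK6 it also fell with ATRA (-1.68 ± 0.41, adjusted p = 0.00128) and Carbacyclin (-1.79 ± 0.50, adjusted p = 0.00443). In MIG the differences were -0.68 ± 0.39 with ATRA and -0.66 ± 0.37 with Carbacyclin, and did not pass. With Bexarotene in MIG the difference was 0.44 ± 0.35 (adjusted p = 0.345). All of these values are below 1 CPM, the filter of 1 CPM in a group removes the gene, and an antisense gene of the GENCODE annotation (Gm44732) could not be separated without the strand setting. No library with NOE, or with Carbacyclin in IK6, reached the main filter's minimum count of 10, and in IK6 ATRA only replicate 2 did (14 counts). Cdkn1c thus passed that filter through other groups, where it was higher, DMSO among them. The called falls are not free of this selection.

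The effect of IK6 itself was read by comparing IK6 with MIG under the same treatment. Btg1 and Cdkn2b were lower in IK6 with DMSO and with each of the 4 compounds, and no IK6 library overlapped a MIG library of the same treatment for either gene. How many of all tested genes were lower without overlap in all 5 comparisons was not counted. With DMSO, 3 members were lower in IK6 (Cdkn1b, Cdkn2b and Btg1), where 12.7% of all tested genes were lower, and no member was higher, where 13.3% were. With ATRA, 5 were lower (Cdkn1b, Cdkn2b, Cdkn2c, Cdkn2d and Btg1; 20% of all genes) and none higher (20.9%). With Bexarotene the same 5 were lower (9.95% of all genes) and none higher (11.1%). With Carbacyclin, 4 were lower (Cdkn1a, Cdkn2b, Btg1 and Btg2; 14.8% of all genes) and Cdkn2c was higher (17.3%). With NOE, 3 were lower (Cdkn2b, Btg1 and Btg2; 13.7% of all genes) and Cdkn2c was higher (18.9%).

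The difference of Btg1 between IK6 and MIG was -0.57 ± 0.08 on the log2 scale with DMSO (adjusted p = 2.77e-07), and it ranged from -0.98 with Carbacyclin (adjusted p = 1.65e-11) to -0.29 with NOE (adjusted p = 0.00284). For Cdkn2b it was -0.32 ± 0.09 with DMSO (adjusted p = 0.00702) and between -0.61 and -0.39 with the compounds. Cdkn1b was lower in IK6, with a difference of -0.25 with DMSO (adjusted p = 0.00135), -0.52 with ATRA (adjusted p = 1.29e-08) and -0.24 with Bexarotene (adjusted p = 0.0106). The last was lost without IK6 Bexarotene replicate 1 (adjusted p = 0.055) or MIG Bexarotene replicate 1 (0.0575). With NOE the Cdkn1b difference had the other sign, 0.15, and just missed the threshold (adjusted p = 0.0528). With DMSO alone, then, the genes of p27 and p15 were both lower in IK6. For Btg2 the DMSO difference was -0.01, with a 95% interval of -0.18 to 0.15, and it was lower in IK6 with Carbacyclin (-0.29 ± 0.09, adjusted p = 0.00761) and NOE (-0.43 ± 0.08, adjusted p = 4.62e-05). In a fit of the 2 Carbacyclin groups alone, Btg1 was the only one of the 5 members that passed, and adjusted p was 0.193 for Btg2, 0.121 for Cdkn1a, 0.0765 for Cdkn2b and 0.152 for Cdkn2c.

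Cdkn2c changed sides between treatments. It was lower in IK6 with ATRA (-0.25 ± 0.07, adjusted p = 0.00548) and Bexarotene (-0.54 ± 0.08, adjusted p = 5.55e-06), and higher in IK6 with NOE (0.43 ± 0.07, adjusted p = 9.61e-06) and Carbacyclin (0.27 ± 0.08, adjusted p = 0.00653). The Carbacyclin call was lost without IK6 Carbacyclin replicate 1 (adjusted p = 0.0947). Cdkn2d was lower in IK6 with ATRA (-0.68 ± 0.18, adjusted p = 0.00197), with no overlap, and with Bexarotene (-0.67 ± 0.21, adjusted p = 0.0161). The second was lost without the high-ribosomal MIG Bexarotene replicate 3 (adjusted p = 0.169), IK6 Bexarotene replicate 2 (0.058) or IK6 Bexarotene replicate 3 (0.0544). Cdkn1a was lower in IK6 with Carbacyclin, at -0.33 ± 0.11 (adjusted p = 0.025), with overlapping libraries. Without the 3 high-ribosomal libraries that difference was -0.23 (adjusted p = 0.0534), and it was also lost without IK6 Carbacyclin replicate 2 (0.0555) or 3 (0.155) or MIG Carbacyclin replicate 4 (0.0689). With ATRA its difference was -0.26 ± 0.10, with no overlap, and just missed the threshold (adjusted p = 0.0506). It passed without the 3 libraries (-0.25, adjusted p = 0.0144) and, with all libraries, in 5 alternatives: DESeq2 (0.0356), RLE factors (0.0399), upper-quartile factors (0.02), a filter of 1 CPM in a group (0.0241) and the 2 groups alone (9.31e-04). With Bexarotene it was 0.31 ± 0.12 (adjusted p = 0.0713), and 0.45 without the 3 libraries (adjusted p = 0.00285). With DMSO Cdkn1a differed by 0.27 ± 0.11 (adjusted p = 0.061), and without the 3 libraries it was higher in IK6 by 0.38 (adjusted p = 0.00219). The DMSO difference also passed in the same 5 alternatives (highest adjusted p 0.0477).

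Whether a compound acted differently in the 2 vectors was tested as the interaction of vector and compound, in which a negative value is a smaller rise or a larger fall in IK6. The Cdkn1a rise was smaller in IK6 with ATRA (-0.53 ± 0.15, adjusted p = 0.0203) and with Carbacyclin (-0.60 ± 0.16, adjusted p = 0.0105). With Bexarotene its 95% interval was -0.29 to 0.37. ATRA gave 2 interactions among the 9 members (Cdkn1a and Cdkn1b), where 9.78% of all tested genes passed, and Bexarotene 1 (Cdkn2c; 5.69% of all genes). Carbacyclin gave 3 (Cdkn1a, Cdkn2c and Btg1; 8.83% of all genes) and NOE 3 (Cdkn1b, Cdkn2c and Btg2; 8.82%). The fall of Cdkn2c was larger in IK6 with Bexarotene (-0.42 ± 0.11, adjusted p = 0.0165) and smaller in IK6 with Carbacyclin (0.39 ± 0.10, adjusted p = 0.0133) and NOE (0.55 ± 0.10, adjusted p = 2.24e-04). The Bexarotene call was lost without MIG Bexarotene replicate 3 (adjusted p = 0.0662) or IK6 Bexarotene replicate 3 (0.0586), and the Carbacyclin call without IK6 Carbacyclin replicate 1 (0.0801). Fitted with their 4 groups alone, the Carbacyclin interactions of Cdkn2c (adjusted p = 0.0793) and Btg1 (0.0916) did not pass. Btg1 rose less in IK6 with Carbacyclin (-0.41 ± 0.11, adjusted p = 0.0133) and Btg2 less in IK6 with NOE (-0.41 ± 0.11, adjusted p = 0.0142). Cdkn1b rose more in IK6 with NOE (0.41 ± 0.09, adjusted p = 0.0013). Its interaction with ATRA (-0.27 ± 0.09, adjusted p = 0.0424) was lost in 11 of 16 refits without 1 library and with the replicate number as a block (adjusted p = 0.0538). Without the 3 high-ribosomal libraries the interactions of Cdkn2d with ATRA (-0.70, adjusted p = 0.00412), of Cdkn2b with Bexarotene (-0.42, adjusted p = 0.0462) and of Cdkn1a with NOE (-0.47, adjusted p = 0.0141) also passed, which with all libraries had adjusted p = 0.214, 0.296 and 0.203.

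**Figure D5:**
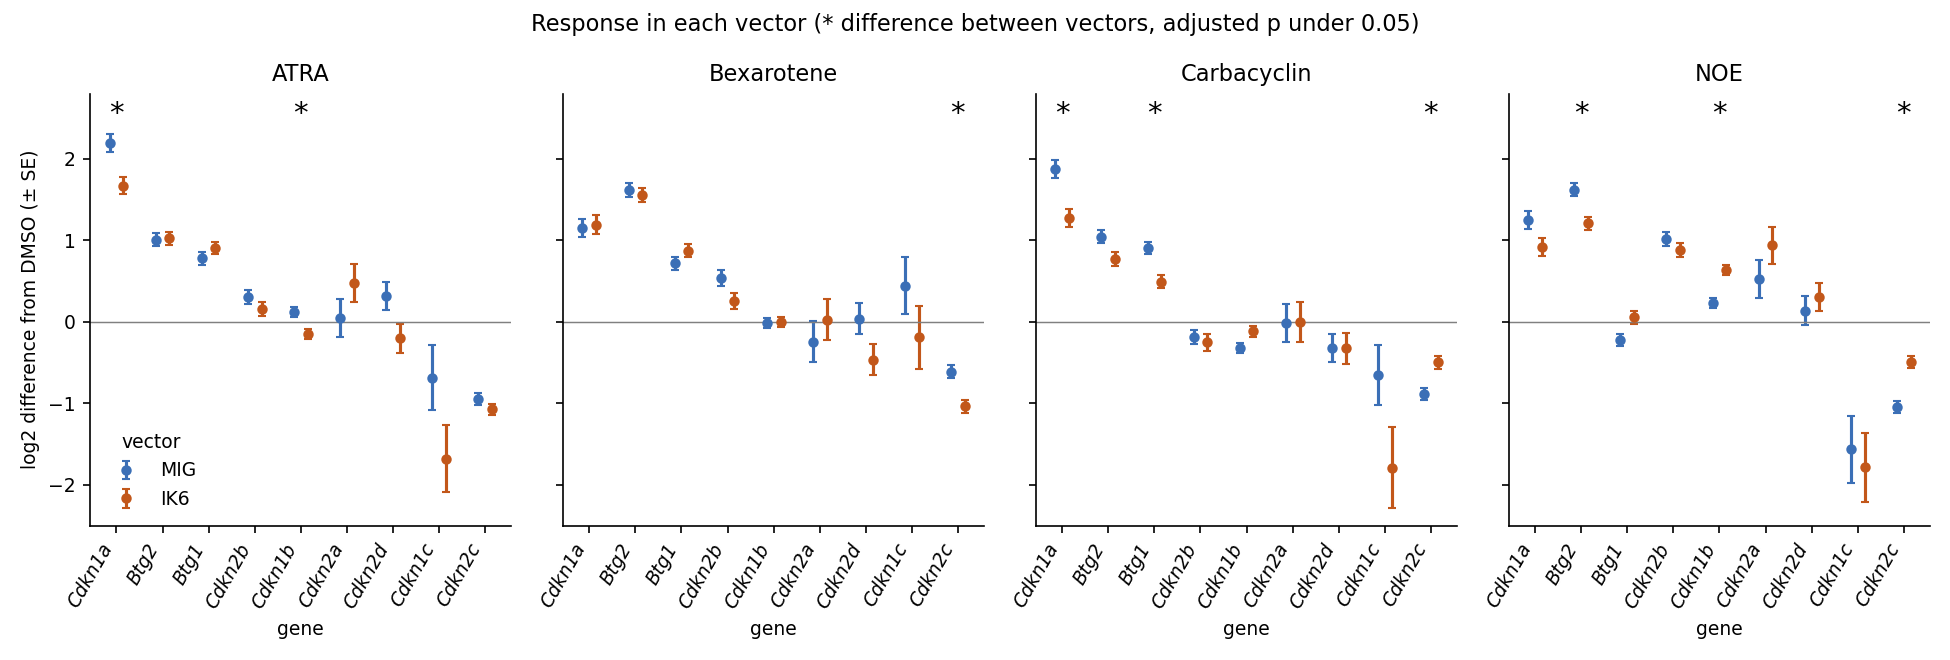
Log2 difference from DMSO (vertical axes) of each gene (horizontal axes) in MIG (blue) and IK6 (orange), with a panel for each compound. Points are estimates of the fit and bars their SE. An asterisk marks a gene whose response to the compound of that panel differed between vectors with an adjusted p under 0.05. The Cdkn1a points of IK6 lie below those of MIG with ATRA and Carbacyclin, and the Cdkn2c points lie above with Carbacyclin and NOE and below with Bexarotene.

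ATRA and Bexarotene, ligands of partner nuclear receptors given at the same 1 µM, were compared directly in each vector. Both compounds raised Cdkn1a and Btg2, but Cdkn1a was lower with Bexarotene than with ATRA (-1.04 ± 0.12 in MIG, adjusted p = 1.54e-08, and -0.48 ± 0.11 in IK6, adjusted p = 0.00213). Btg2 was higher with Bexarotene (0.61 ± 0.08 in MIG, adjusted p = 8.99e-07, and 0.53 ± 0.08 in IK6, adjusted p = 1.42e-05). The libraries of the 2 compounds did not overlap for either gene in either vector. In MIG, 3 members were higher with Bexarotene (Cdkn1c, Cdkn2c and Btg2), where 12.6% of all genes were, and 1 was lower (Cdkn1a), where 11% were. In IK6, 2 were higher (Cdkn1c and Btg2; 11.7% of all genes) and 1 lower (Cdkn1a; 10.2%). Cdkn2c differed in MIG (0.33 ± 0.08, adjusted p = 0.0015), and in IK6 its 95% interval was -0.12 to 0.20. The Cdkn1c calls rest on few counts and on a gene that passed the filter through groups where it was higher, Bexarotene among them. The call in MIG was lost in 6 of 7 refits without 1 library (adjusted p up to 0.142) and without the 3 high-ribosomal libraries (0.93, adjusted p = 0.103). It was also lost without the expression filter (0.059) and with the replicate number as a block (0.0592). In MIG without those 3 libraries, Cdkn2b was higher with Bexarotene (0.33, adjusted p = 0.00659) and Cdkn2a (-0.61, adjusted p = 0.0291) and Cdkn2d (-0.53, adjusted p = 0.00435) lower. With all libraries these had differences of 0.23 ± 0.09 (adjusted p = 0.076), -0.29 ± 0.25 (0.474) and -0.28 ± 0.19 (0.333) and did not pass. In IK6 the Cdkn1c call was lost without IK6 ATRA replicate 3 (adjusted p = 0.0506) or IK6 Bexarotene replicate 3 (0.0934). For Btg1 no difference passed, with 95% intervals of -0.22 to 0.11 in MIG and -0.20 to 0.13 in IK6, so differences as large as the rise over DMSO lie outside them. For Cdkn1b the intervals were -0.26 to 0.00 and 0.02 to 0.28. A total of 18 such differences, 9 genes in 2 vectors, was looked at for this pair of compounds, with p-values adjusted over all genes of each comparison.

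NOE and Carbacyclin lay past the same threshold from each other for 7 of the 9 members in each vector. This comparison was chosen after the values of both groups had been seen, so its differences are given as a description of how far apart the groups lie. In each vector Cdkn1b, Cdkn2a, Cdkn2b, Cdkn2d and Btg2 were higher with NOE and Cdkn1a and Btg1 higher with Carbacyclin. Of all tested genes, 25.3% were higher and 26.8% lower with NOE in MIG, and 24.8% and 22.6% in IK6. Cdkn2b differed most among the genes higher with NOE (1.20 ± 0.09 in MIG and 1.13 ± 0.10 in IK6), and Btg1 most among those higher with Carbacyclin in each vector (-1.13 ± 0.08 and -0.44 ± 0.08). Libraries of the 2 compounds overlapped for Cdkn2d in both vectors and for Cdkn2a in MIG, where MIG Carbacyclin replicate 4 held 127 CPM of Cdkn2a. In MIG, Cdkn2a (0.54 ± 0.23) and Cdkn2d (0.46 ± 0.17) no longer passed when any of MIG Carbacyclin replicates 1, 2 or 3 or MIG NOE replicate 1 was left out, and Cdkn2a also without MIG NOE replicate 2. Both also failed to pass in a fit of the 2 groups alone or without the expression filter. In IK6, Cdkn1a (-0.35 ± 0.11) no longer passed without IK6 Carbacyclin replicate 1 or IK6 NOE replicate 3, and Cdkn2d (0.63 ± 0.19) without IK6 Carbacyclin replicate 3. For Cdkn2c the 95% interval was -0.31 to -0.01 in MIG and -0.15 to 0.16 in IK6.

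Across the 10 group means, which share vectors and treatments and are described with no test, Cdkn2c ran opposite to Cdkn1a (r = -0.86) and Btg2 (r = -0.78) on the log2 CPM scale. Cdkn1b ran with Cdkn2b (r = 0.86) and Cdkn2d (r = 0.84). The correlation of Btg1 with Btg2 was 0.37. Among 10512 tested genes that averaged 1 CPM or more over the 10 groups, the profiles most like that of Cdkn1a were those of Atg2a (r = 0.97), Neu1 (r = 0.97) and Atp6v0d1 (r = 0.96). Among those most like Cdkn2c were Phf6 and Sp1 (r = 0.97 each). For Btg2 they were led by Dnase1l2 (r = 0.98), for Btg1 by Arhgap9 (r = 0.98), for Cdkn2b by Sorbs2 (r = 0.98) and for Cdkn1b by Cep170 (r = 0.97). Cdkn2a was led by Rasgrf2 (r = 0.95), Cdkn2d by Adrbk1 (r = 0.95) and the sparse Cdkn1c by Nfya (r = 0.95).

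The targets of the inhibitors were followed through 12 genes of CDKs and cyclins, all tested. With ATRA 1 rose and 8 fell in MIG and 2 rose and 8 fell in IK6, with a median log2 difference of -0.68 and -0.54 against -0.01 and 0.02 over all tested genes. In the 8 comparisons with DMSO, the median over all tested genes lay between -0.01 and 0.03, 19.9% to 24.7% of all tested genes rose and 18.2% to 23.3% fell, and these shares are the background of each list's counts. With Bexarotene 2 rose and 8 fell in MIG and 1 rose and 9 fell in IK6 (median -0.59 and -0.57), with Carbacyclin 2 rose and 4 fell in MIG and 3 rose and 4 fell in IK6 (-0.10 and -0.18), and with NOE 1 rose and 8 fell in MIG and 1 rose and 8 fell in IK6 (-0.97 and -0.76). With Carbacyclin 24.7% of all tested genes rose and 23.3% fell in MIG, and 20.8% and 18.8% in IK6, so the falls among the 12 lay closer to the background than those of the other compounds. Ccna2, cyclin A2 of the replication and mitosis phases, went from 134 CPM with DMSO in MIG to 41.6 with ATRA (-1.69, adjusted p = 2.71e-20) and 35.7 with NOE (-1.91, adjusted p = 1.10e-21). It was at 78.9 CPM with Bexarotene and 79.5 with Carbacyclin, falls of 0.77 and 0.76. Cdk1, the mitotic kinase, fell with ATRA (-1.54) and NOE (-1.73) in MIG. In IK6 with DMSO, 6 of the 12 were higher than in MIG and 0 lower, where 13.3% of all tested genes were higher and 12.7% lower. The 6 were led by Ccnd1 (cyclin D1), with 127 against 48.5 CPM (1.39, adjusted p = 3.28e-18). With ATRA 5 were higher in IK6 and 1 lower (20.9% and 20% of all genes), and with Bexarotene 1 and 2 (11.1% and 9.95%). With Carbacyclin 8 were higher and 1 lower (17.3% and 14.8%), and with NOE 8 and 1 (18.9% and 13.7%). Among 17 retinoblastoma family and E2F genes, 2 rose and 11 fell in MIG and 1 rose and 8 fell in IK6 with ATRA and 3 rose and 11 fell in MIG and 4 rose and 11 fell in IK6 with NOE. With Bexarotene 3 rose and 2 fell in MIG and 1 rose and 9 fell in IK6, so that in MIG more rose than fell, and with Carbacyclin 3 rose and 8 fell in MIG and 2 rose and 6 fell in IK6. E2f8, a repressor of the E2F family, fell with ATRA in MIG (-2.11, adjusted p = 1.25e-16).

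Regulators of the 9 genes moved in mixed directions. Of 18 tested genes of the p53 pathway, apart from Cdkn1a, 4 rose and 8 fell with ATRA in MIG, 4 rose and 3 fell with Bexarotene, 3 rose and 9 fell with Carbacyclin and 3 rose and 8 fell with NOE, with medians of -0.13, -0.08, -0.21 and -0.21. In IK6 3 rose and 7 fell with ATRA, 5 rose and 6 fell with Bexarotene, 2 rose and 10 fell with Carbacyclin and 2 rose and 6 fell with NOE, with medians of -0.02, -0.05, -0.31 and -0.13. With ATRA in MIG 20.6% of all tested genes rose and 21.2% fell, so the rises in this list were at the background share. Plk2, a p53 target, rose from 1.57 to 8.34 CPM with ATRA (2.42, adjusted p = 2.74e-18), while Bbc3, the gene of the apoptosis inducer PUMA, fell with Carbacyclin (-2.51, adjusted p = 7.78e-14). Sesn2, a stress-responsive p53 target, rose with Bexarotene (1.03) and fell with ATRA (-0.89), Carbacyclin (-1.35) and NOE (-0.86). In each of these comparisons Cdkn1a rose while some other genes of the pathway fell. Of 19 FOXO factors and targets, 10 rose and 4 fell with NOE in MIG and 14 rose and 2 fell in IK6, with medians of 0.47 and 0.46. Rag1, the recombinase gene that FOXO1 activates in pre-B cells, went from 8.50 to 74.6 CPM with NOE in MIG (3.13, adjusted p = 2.31e-22), and Rag2 (2.29) and Il7r (1.90) rose beside it. Of all tested genes 22.6% rose with NOE in MIG and 22.8% in IK6. With ATRA 9 rose and 6 fell in MIG and 8 rose and 5 fell in IK6 (medians 0.16 and -0.03), with Bexarotene 11 rose and 4 fell in MIG and 11 rose and 3 fell in IK6 (0.29 and 0.38), and with Carbacyclin 6 rose and 6 fell in MIG and 6 rose and 6 fell in IK6 (-0.05 and -0.10). Btg1, whose window holds the FOXO site, differed by -0.23 with NOE in MIG, a call lost without MIG NOE replicate 1 or 2, and by 0.05 in IK6. Whether FOXO factors bear on Btg1 was not tested. Klf2, a quiescence factor of lymphocytes, rose with ATRA (2.14) and Bexarotene (1.98).

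Partners of BTG1 and BTG2 and regulators of the inhibitors were counted last. Of 15 tested genes of BTG relatives and the CCR4-NOT complex, 1 rose and 6 fell with ATRA in MIG, 1 rose and 2 fell with Bexarotene, 4 rose and 3 fell with Carbacyclin and 4 rose and 5 fell with NOE. In IK6 2 rose and 6 fell with ATRA, 2 rose and 4 fell with Bexarotene, 5 rose and 1 fell with Carbacyclin and 5 rose and 3 fell with NOE. The medians lay between -0.09 and 0.08. Of all tested genes 20.6% rose and 21.2% fell with ATRA in MIG, so 1 rise and 6 falls among these 15 lay below and above those shares. Counts with Carbacyclin in MIG (4 rises and 3 falls) lay nearer the shares of all tested genes, 24.7% and 23.3%. The relative Btg3 fell with ATRA (-0.55, adjusted p = 1.38e-05) and Carbacyclin (-0.54), and Tob2 rose with Carbacyclin (0.58). Of 13 genes that turn over p21 and p27, 0 rose and 4 fell with ATRA in MIG, 0 rose and 4 fell with Bexarotene, 4 rose and 1 fell with Carbacyclin and 0 rose and 6 fell with NOE. In IK6 2 rose and 4 fell with ATRA, 0 rose and 5 fell with Bexarotene, 5 rose and 0 fell with Carbacyclin and 0 rose and 5 fell with NOE. The medians lay between -0.18 and 0.10. Skp2, which marks p27 for degradation, fell with ATRA (-0.81, adjusted p = 4.68e-13), NOE (-0.54) and Bexarotene (-0.33) in MIG, and Dtl, which targets p21 through CUL4, fell with ATRA (-1.07), Bexarotene (-0.62) and NOE (-1.30). These are messenger RNA levels and say nothing of protein. Of 21 tested Polycomb and other regulators of the Ink4 locus, 6 rose and 7 fell with ATRA in MIG, 8 rose and 4 fell with Bexarotene, 8 rose and 5 fell with Carbacyclin and 6 rose and 5 fell with NOE. In IK6 6 rose and 6 fell with ATRA, 9 rose and 6 fell with Bexarotene, 7 rose and 6 fell with Carbacyclin and 8 rose and 1 fell with NOE. The medians lay between -0.06 and 0.12, and of all tested genes 19.9% to 24.7% rose and 18.2% to 23.3% fell. Ets2, an activator of the p16 promoter in human cells, rose with ATRA (1.31), Bexarotene (0.67) and Carbacyclin (1.20), and Ezh2, the Polycomb methyltransferase, fell with ATRA (-0.44) and rose with Carbacyclin (0.35). Bmi1, a Polycomb repressor of Cdkn2a, rose with Bexarotene (0.61).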

How the data were processed

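The authors deposited raw read counts for 35290 genes in each of 37 libraries (TruSeq RNA v2, Illumina HiSeq, per the labels' protocols; mm9, BWA 0.5.9 and HTSeq, per the submitters' processing notes). The sources used here do not state the strand setting, counting mode or annotation, so overlapping genes and antisense genes could not be separated. The members and gene lists were chosen with earlier results of these data known.

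Counts were fitted with edgeR 4.0.16 in R 4.3.3 (TMM factors, filterByExpr with a minimum count of 10 and a minimum total of 15, 1 model of 10 groups, 27 residual degrees of freedom, robust quasi-likelihood F test). P-values were adjusted by Benjamini-Hochberg over 15699 tested genes, threshold 0.05. Intervals are 95%. The biological coefficient of variation was 0.112. Genes per list were named in each comparison by the lowest adjusted p among genes over 1 CPM. A value of such a gene given without a vector belongs to 1 vector and does not describe the other. Exon lengths came from GENCODE M21 and promoters from RefSeq. Likeness was the Pearson correlation of log2(mean CPM + 0.1) over groups. Total counts of 16.5 to 80.4 M (M, 1e+06 counts) set the precision, and Cdkn1c is limited by counting. The steps were tested on simulated data. Replicates differed beyond sampling noise (chi-square per degree of freedom 2.32 to 242 over 51 pairs).

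Alternatives were DESeq2 1.42.0, RLE and upper-quartile factors, other filters, the compared groups alone, a replicate block, omission of each library, and omission of 3 libraries with over 12% ribosomal protein counts. A gene among the profiles most like that of Cdkn2c is not reported here. Libraries with the same replicate number in the labels deviated together, with every pair over 0.1, in 2 of 17 comparisons: Bexarotene against DMSO in MIG (0.23 to 0.62) and NOE against Carbacyclin in IK6 (0.25 to 0.40).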

Additional observations from a re-analysis of the deposited data

Results flagged for a closer look

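Of 63 sets of 4 libraries with a member's values, 5 had a library far from the other 3, where chance alone flags about 1 in 20. Cdkn2a was at 115 CPM in MIG DMSO replicate 3 against 61.6 to 67.7 CPM in the others, and Cdkn2c in the same library was at 54.0 CPM against 45.8 to 46.4 CPM. Cdkn2a was low in MIG ATRA replicate 2, at 65.7 CPM against 83.8 to 87.0 CPM. Cdkn1b was low in MIG ATRA replicate 3, at 193 CPM against 206 to 209 CPM. Btg1 was low in IK6 DMSO replicate 1, at 123 CPM against 137 to 139 CPM.

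Of 36 tests of a difference between the vectors in response to a compound, 9 passed in edgeR's quasi-likelihood test with Benjamini-Hochberg adjustment. Of all tested genes, 5.69% (Bexarotene) to 9.78% (ATRA) passed. All 36 tests use the same DMSO libraries, so they are not independent of each other. On the log2 scale the 9 included Cdkn1a with ATRA (-0.53) and Carbacyclin (-0.60), Cdkn1b with ATRA (-0.27) and NOE (0.41), and Cdkn2c with Bexarotene (-0.42), Carbacyclin (0.39) and NOE (0.55). The others were Btg1 with Carbacyclin (-0.41) and Btg2 with NOE (-0.41). A negative value is a smaller rise or a larger fall in IK6.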

How the results depend on the processing

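No called difference of a member changed sign in the alternatives run. Counts of members called stayed within 1.5 times of the reported ones except as follows. With only the compared groups fitted, IK6 against MIG gave 8 members with ATRA (5 reported) and 1 with Carbacyclin (5), the interaction with Carbacyclin 1 (3), and Bexarotene against ATRA in IK6 6 (3). The interaction with ATRA gave 1 member without the expression filter, 1 with the replicate block, and 1 to 2 without 1 library (2). The interaction with Bexarotene gave 2 without the 3 high-ribosomal libraries and 0 to 1 without 1 library (1), with 0 without MIG Bexarotene replicate 3 or IK6 Bexarotene replicate 3. The causes were not tested.

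The replicate block ended 4 calls: Cdkn1b with ATRA in IK6 (adjusted p = 0.0548) and its interaction, Cdkn1c between Bexarotene and ATRA in MIG, and Cdkn2b with Carbacyclin in IK6. It changed no other call of a member. Without the expression filter 8 calls of members were lost, each among those given above as lost in another alternative. A filter of 1 CPM in a group drops Cdkn1c. Over all genes, counts moved by more than 1.5 times for IK6 against MIG with Bexarotene (4985 without the 3 libraries, 3298 reported) and the interaction with Carbacyclin (2256 without them and 884 with only the compared groups, 1386 reported). With only the compared groups they also moved for IK6 against MIG with Carbacyclin (2442, 5048 reported), Carbacyclin in MIG (4710, 7536), the interaction with ATRA (2530, 1536), Bexarotene against ATRA in IK6 (5501, 3441) and NOE against Carbacyclin in MIG (5395, 8170). The comparison of NOE with Carbacyclin was chosen after seeing the data. Depth limits Cdkn1c most.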
